A study of Bos taurus with 6 samples.

Results

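The windows described here lie on the contigs of the bovine genome UMD v3.1 that are not placed on a chromosome. They are all windows whose chromosome entry in the deposited tables starts with Un, which came to 3166 of the 902984 windows, or 0.351%. Their names gave 1825 contigs, and 886863 windows on chromosomes 1 to 29 and X served for comparison.

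The libraries were made by MIRA-Seq from dermal fibroblasts of 3 Holstein heifers, cultured from skin taken at 5 and again at 16 months of age, grown to passage 5 in DMEM and given no treatment and no LPS. With 1 library for each animal at each age (n = 3), the p-values below refer to the spread between these cultures, and the 6 libraries come from 3 animals and are not independent. In the edgeR tests of windows this spread was mostly pooled over all windows tested, with 178 prior degrees of freedom against 2 of a window's own. A low FDR can therefore stand beside animals that disagree. The heifers were chosen by the study as animals with a middling LPS response. Between 19925171 and 43573272 reads were counted in a library.

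An unplaced contig is assembled sequence whose position among the chromosomes could not be settled, and such contigs are often short and rich in satellites and other repeats, which in mammals carry dense CpG methylation. MIRA recovers methylated fragments of sonicated DNA on methyl-binding proteins, and these fragments are sequenced. A count in such a pulldown rises with the methylation of a region, with its density of CpG sites and with the number of copies of its sequence in the cell, and these cannot be told apart here. The count of a repeat also depends on how reads that match several sequences equally well were placed, and the sources used here do not give this.

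The windows of 3 kb were laid end to end over the contigs. Of the 3166 windows, 1341 lay wholly inside 1 contig, and 1825, 1 for each contig name, began on a contig and ran over its end into the sequence that follows. Contigs were mostly short, and 1415 of the 1825 began only 1 window. Contig numbers rose by more than 1 at 1053 of the steps between successive names, so a window that runs over an end can take in contigs that no window is named for. A contig level below is the sum over the windows named for that contig, in CPM, its read count scaled to 1000000 counted reads of the library.

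The unplaced contigs took a share of the counted reads far above their share of the windows. In the 5-month cultures of animals 1, 2 and 3 they held 15.8, 12.9 and 20.4% of the counted reads, and in the 16-month cultures 16.0, 16.3 and 16.9%. The mean over the 6 libraries was 16.4 ± 2.43% (SD, n = 6), and as a share of all matched reads it was 10.02 ± 1.36%. Between 3155602 and 7632211 reads of a library lay on the contigs, so counting error on these shares is small beside the spread between libraries.

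The median unplaced window held 2.66, 2.07 and 1.55 CPM at 5 months and 2.34, 2.04 and 1.88 CPM at 16 months in animals 1 to 3, whereas the median window of chromosomes 1 to 29 and X held between 0.0502 and 0.235 CPM. The difference of medians was 1.95 ± 0.413 CPM (SD, n = 6) and lay above 0 in 6 of 6 libraries (exact two-sided sign-flip test, p = 0.0312, the smallest that 6 libraries can give, and 0.25 over the means of 3 animals). Mean levels lay further apart, at 51.8 ± 7.67 CPM per unplaced window against 0.943 ± 0.0274 CPM on the chromosomes (SD, n = 6). In windows lying wholly inside 1 contig the median was 1.18 ± 0.189 CPM (SD, n = 6), which was also above the chromosomes in 6 of 6 libraries.

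The contigs differed widely among themselves. The 25th percentile of the mean level of a window was 0.0657 CPM, the median 2.14 CPM, the 75th percentile 59.4 CPM, the 95th percentile 255 CPM and the highest window 1173 CPM. In 466 windows no library had a read, and 377 contigs were listed at 0 in all 6. At the other end, 586 windows, or 18.5%, had a mean of at least 100 CPM, against 902 windows, or 0.102%, on the chromosomes. These 586 windows held 81.5% of the mean unplaced signal. Among the 1000 windows of the whole genome with the highest mean CPM, 424 were unplaced, and the highest of them ranked at 23.

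Reads were concentrated on a minority of contigs, but not on a handful. As a measure, 50% of the unplaced reads lay on 184, 205 and 160 contigs at 5 months and on 186, 191 and 159 contigs at 16 months in animals 1, 2 and 3, a mean of 181 ± 18.1 (SD, n = 6), or 9.91% of the contigs. To reach 90% of the reads took 564 to 637 contigs. The contig with the most reads held only 0.810 to 1.43% of them, and it differed by animal, being NW_003100597.1 in both libraries of animal 1, NW_003100576.1 in both of animal 2 and NW_003099722.1 in both of animal 3.

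**Figure D1:**
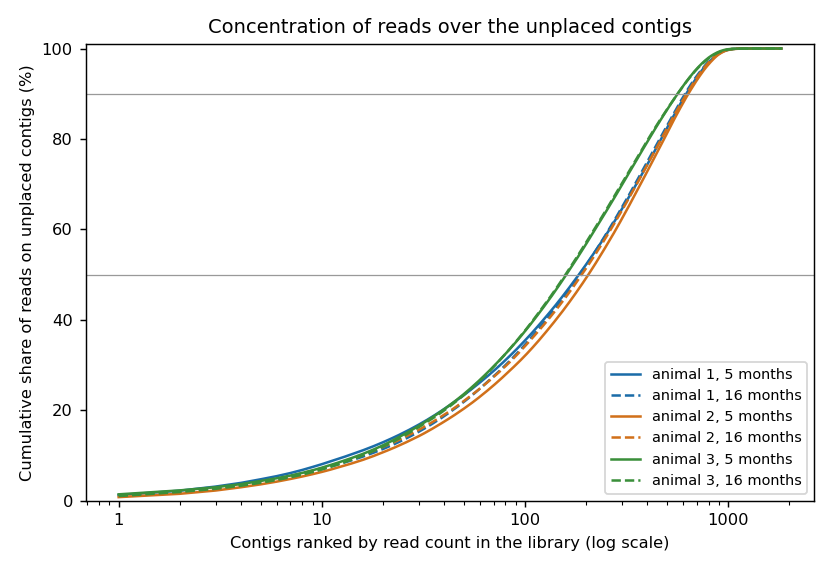
Cumulative share of the reads on unplaced contigs (y axis, %) against the number of contigs ranked by read count within each library (x axis, log scale), with 1 line per library, solid at 5 months and dashed at 16 months, and grey lines at 50 and 90%. The curves of animal 3 cross 50% first, at 160 and 159 contigs, and the 5-month library of animal 2 last, at 205.

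Short contigs carried nearly all of this signal. Contigs with 1 window, 1415 in number, held 73.2 ± 6.73% of the unplaced reads (SD, n = 6) and had a median window of 11.6 ± 1.29 CPM. The 328 contigs of 2 to 4 windows held 24.2 ± 5.96% with a median of 5.79 ± 1.51 CPM. The 56 contigs of 5 to 9 windows held 1.34 ± 0.412% with a median of 0.387 ± 0.107 CPM, and the 26 contigs of 10 or more windows 1.23 ± 0.388% with a median of 1.47 ± 0.307 CPM. Single-window contigs were above the longest class in 6 of 6 libraries. Windows that ran over a contig end held 84.6 ± 4.66% of the reads and had a median of 8.52 ± 1.55 CPM against 1.18 ± 0.189 CPM for windows inside a contig. Within contigs of 5 or more windows, where both kinds occur side by side, the medians were closer, at 1.33 ± 0.213 and 0.988 ± 0.178 CPM.

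The 10 contigs with the highest mean CPM had no gene label, and 6 of them began only 1 window. The first, NW_003100597.1, held 2005 and 1791 CPM in animal 1 at 5 and 16 months, 371 and 535 CPM in animal 2, and 1433 and 1113 CPM in animal 3. Its level in animal 2 lay below the other 4 libraries. The second, NW_003099722.1, held 362 and 635 CPM in animal 1, 629 and 735 CPM in animal 2, and 2914 and 1766 CPM in animal 3, so that both libraries of animal 3 lay above the rest. NW_003099028.1, with 606 and 837, 536 and 501, and 1786 and 1527 CPM in the same order, and NW_003099199.1, with 510 and 681, 633 and 855, and 1416 and 1142 CPM, were also highest in animal 3.

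The remaining 6 were not highest in animal 3 by counted reads, but on the TMM scale used for the comparison of animals below the mean of animal 3 was the highest in all 10. NW_003100012.1 held 1531 and 1303 CPM in animal 1, 418 and 582 CPM in animal 2 and 1195 and 911 CPM in animal 3, and NW_003100654.1 was likewise lowest in animal 2, with 384 and 558 CPM. In NW_003100123.1 the means of the animals lay within 1.43-fold of each other, at 1010, 796 and 706 CPM, and those of NW_003100305.1 within 1.46-fold and of NW_003100686.1 within 1.504-fold. NW_003100473.1 had means of 1355, 659 and 859 CPM in animals 1, 2 and 3.

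**Figure D2:**
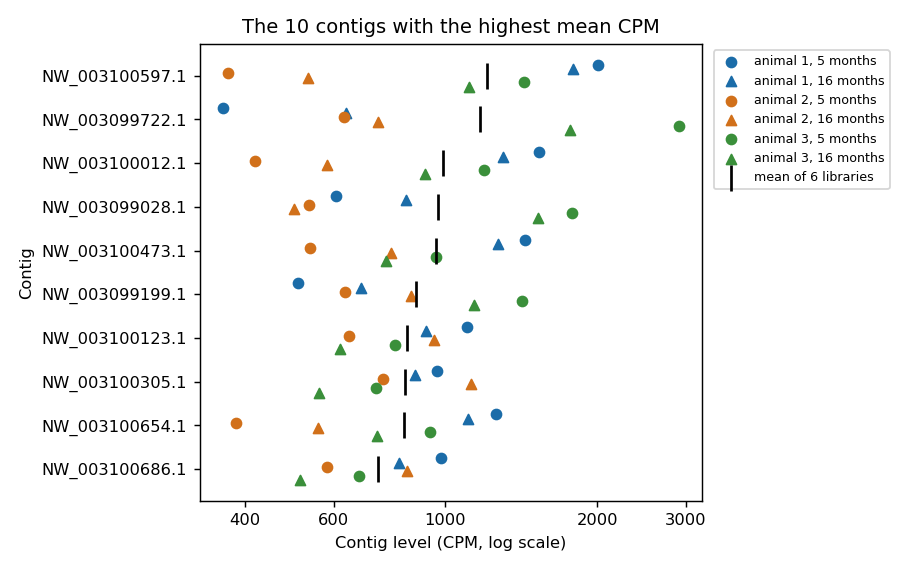
Level of the 10 contigs with the highest mean CPM (x axis, CPM of all counted reads, log scale) in each of the 6 libraries, with colour for the animal, circles for 5 months, triangles for 16 months and a black bar for the mean. NW_003099722.1 reaches 2914 CPM in animal 3, and NW_003100597.1 falls to 371 CPM in animal 2.

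Contig levels were ranked nearly alike in the 2 cultures of an animal and less alike in different animals. Over the 1119 contigs with at least 1 CPM in at least 3 libraries, Spearman's rho between the 2 ages was 0.978, 0.978 and 0.998 in animals 1, 2 and 3, and between libraries of different animals it ran from 0.764 to 0.957. Windows gave the same order, with 0.988 to 0.996 within and 0.888 to 0.975 between animals over 1788 windows. On the chromosomes, where counts per window are lower, rho was 0.896 to 0.923 within and 0.714 to 0.956 between animals over 102860 windows. These are descriptions across contigs and windows, which are not independent replicates and share the depth of a library. The lists of contigs that hold 50% of the reads shared 152 members between the ages of animal 1 (82.6% of the 5-month and 81.7% of the 16-month list), 165 in animal 2 (80.5 and 86.4%) and 153 in animal 3 (95.6 and 96.2%). At 5 months, animals 1 and 2 shared 132 contigs (71.7 and 64.4% of their lists), animals 1 and 3 shared 97 (52.7 and 60.6%) and animals 2 and 3 shared 102 (49.8 and 63.8%). Only 63 contigs were in the list of all 6 libraries, of 321 in any, and no contig was among the 10 highest of every library.

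To ask how far animals differed, windows past a filter of 1 CPM in 3 or more libraries were fitted together with all windows of the genome that passed the same filter. Of the unplaced windows 1788 passed, or 56.5%, against 11.6% on the chromosomes. Counts were scaled by TMM factors, which set the windows of the libraries to a common level. With age as a covariate, 715 of the 1788 windows, or 40.0%, differed between animals at an FDR below 0.1 and by at least 2-fold between the highest and the lowest animal, against a background of 20.6% over all 104658 windows tested (edgeR's quasi-likelihood test with Benjamini-Hochberg adjustment). The median range between animals among the called windows was 3.19-fold and the largest 41.8-fold. The share called rose with the level of the window. Below 10 CPM 24.6% of the unplaced and 20.1% of the chromosomal windows were called, from 10 to 100 CPM 33.3 and 17.3%, and from 100 CPM 63.0 and 59.5%, so at the highest levels the shares of unplaced and placed windows were similar. The count was 214 without animal 3, or 11.98%, against 1.43% of all windows, and 436 without animal 2, or 24.1%, against 14.4%. With TMM factors taken over all windows it was 24, or 1.34%, against 0.697%, so the calls fell over the whole genome in each case.

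Animal 3 was the highest in 554 of the 715 called windows and animal 2 the lowest in 426. With scaling by counted reads only, animal 3 was still the highest in 442 of them. Windows in which the 2 libraries of an animal lay outside the range of the other 4 were also counted on the TMM scale. Animal 3 lay above in 574 unplaced windows, or 32.1%, against a background of 24.2% of all windows, and below in 190, or 10.6%, against 21.8%. Animal 2 lay above in 268, or 15%, against 12.6%, and below in 358, or 20%, against 13.5%. Animal 1 lay above in 30, or 1.68%, against 4.13%, and below in 158, or 8.84%, against 3.16%. The direction of these counts depends on the scaling, since over all 1788 windows animal 3 was the highest in 950 with TMM factors and in 471 by counted reads only.

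In the 10 unplaced windows with the lowest FDR, the highest and lowest animals differed by 6.27-fold to 41.8-fold. The window of NW_003100369.1 that starts at base 2311 had TMM-scaled levels of 548 and 554 CPM in animal 1 at 5 and 16 months, 18.1 and 24.1 CPM in animal 2 and 664 and 455 CPM in animal 3. Both cultures of animal 2 were low, by 26.4-fold against the highest animal (edgeR's quasi-likelihood test, FDR = 1.74e-21). A window inside NW_003100564.1, bases 1594 to 4593, showed the opposite, with 702 and 1080 CPM in animal 2 against 91.6 to 130 CPM in the other 4 libraries. NW_003100633.1, at its window from base 14166, was also high in animal 2 alone, with 27.9 and 38.8 CPM against 3.17 to 3.85 CPM, and had the lowest FDR of all unplaced windows (7.98e-23). The windows named for NW_003100536.1 and NW_003100537.1 were both graded from animal 2 through animal 1 to animal 3. The first ran over the end of its contig up to base 2848, and the second began at base 2849 of NW_003100537.1. Both thus hold sequence of NW_003100537.1 and are not separate contigs with a like pattern. In the second window the levels were 10.2 and 10.2 CPM in animal 2, 39.5 and 44.7 CPM in animal 1 and 213 and 143 CPM in animal 3.

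The window of LOC618416 on NW_003100704.1, bases 22086 to 25085, was the only one of the 10 with a gene label. It had 81 and 211 reads in animal 1 and 64 and 57 reads in animal 3 but 4 and 1 reads in animal 2, and gave the 41.8-fold range named above, whose size rests on those few reads. The others of the 10 windows with the lowest FDR by animal were on NW_003100478.1, NW_003100800.1 and NW_003100292.1, low in animal 2 by 10.99-fold, 14.5-fold and 13.2-fold, and on NW_003099854.1, high in animal 3 by 6.27-fold. Both cultures of an animal share its genome, so copy number and methylation of such a sequence cannot be told apart in these comparisons.

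The windows with high levels differed in pattern between ranges of contig numbers in the assembly. Contigs numbered NW_003097883.1 to NW_003099998.1, called the lower block here, held 949 contigs and 341 windows with a mean of at least 100 CPM, and those from NW_003100000.1 to NW_003101164.1, the upper block, held 876 contigs and 245 such windows. This split was chosen after the values were seen. The blocks also differed in kind of window, since all 341 of these windows in the lower block ran over a contig end. In the upper block 166 of the 245 did. The blocks were not compared within the same kind of window. In the lower block the median of these windows was 169 and 195 CPM in animal 1 at 5 and 16 months, 156 and 172 CPM in animal 2, and 294 and 250 CPM in animal 3. The upper block had medians of 169 and 151, 128 and 188, and 136 and 105 CPM in the same order. Animal 3 was thus the highest animal in the lower block and not in the upper one on this scale.

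On the TMM scale, animal 3 exceeded animal 1 by a median of 1.399 log2 units in the lower block (quartiles 0.70 and 1.75) and by 0.19 in the upper block (quartiles 0.11 and 0.27). At least 2-fold more in animal 3 was found in 232 of 341 windows (68.0%) of the lower block, in 22 of 245 (8.98%) of the upper block and in 440 of the 902 chromosomal windows of this level (48.8%). The difference between the medians of the blocks was 1.21 log2 units with each of the 4 scalings tried, since a scaling moves both blocks alike, whereas the upper block itself turned to -0.49 by counted reads only and to -0.60 with TMM factors over all windows. Between animals 2 and 1 the blocks differed in spread rather than in level. The upper block had quartiles of -0.53 and 0.56 around a median of 0.07, and the lower block -0.44 and 0.23 around -0.10.

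**Figure D3:**
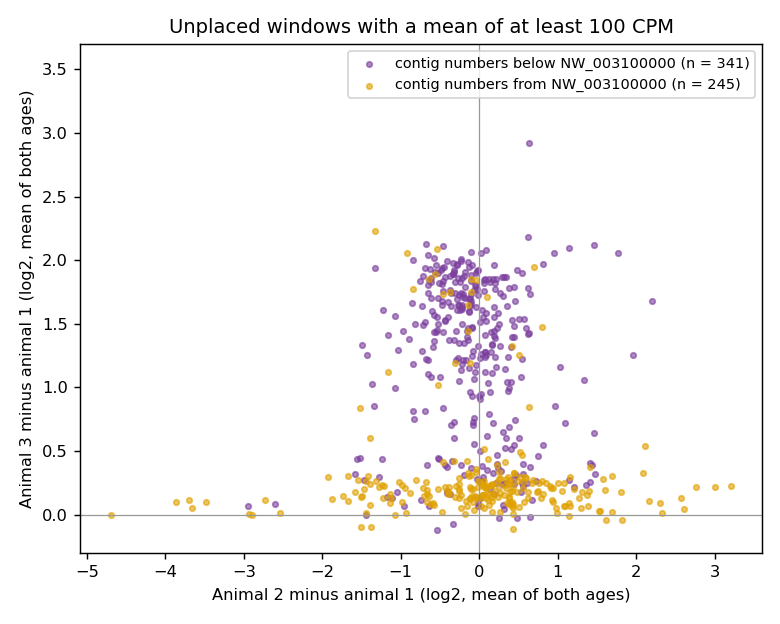
Log2 difference between animals 3 and 1 (y axis) against that between animals 2 and 1 (x axis), each from the mean of both ages on the TMM scale, for the 586 unplaced windows with a mean of at least 100 CPM, coloured by contig number. Upper-block windows form a flat band near 0.19 on the y axis that is wide on the x axis, and most lower-block windows sit above 1 on the y axis, 232 of 341.

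The blocks also took different shares of the reads. The lower block held 7.92, 7.003 and 14.0% of all counted reads in animals 1, 2 and 3 at 5 months and 9.07, 7.89 and 11.8% at 16 months. The upper block held 7.92, 5.87 and 6.47% at 5 months and 6.98, 8.36 and 5.10% at 16 months. The high share of animal 3 was therefore that of the lower block, and the upper block was lower in animal 3 than in animal 1 at either age.

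The ages were compared within animals. The share of counted reads on the unplaced contigs was 16.4 ± 3.81% at 5 months and 16.4 ± 0.439% at 16 months (SD, n = 3). Within animals the difference, 5 minus 16 months, was -0.208 points in animal 1, -3.38 points in animal 2 and 3.55 points in animal 3. The mean difference was -0.0120 ± 3.47 points (SD, n = 3) and was not distinguishable from 0 (exact two-sided sign-flip test, p = 1, where 3 pairs cannot give less than 0.25).

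Of the 1788 unplaced windows tested, 4 passed an FDR below 0.1 and a 2-fold change between the ages, or 0.224%, against a background of 0.185% of all 104658 windows (edgeR's quasi-likelihood test with the animal as a block). All 4 were lower at 5 months. The count was 0 without animal 1, 1 without animal 2 and 11 without animal 3, and DESeq2 called 1. The 11 windows were 0.616%, below the 1.24% of all windows called without animal 3. When the windows of each contig were summed, 2 of 1119 contigs were called, or 0.179%, against a background of 0.183% of 103989 features, and these were the contigs of windows already called. The shares are close to the background. The median log2 difference was -0.03 over the unplaced windows and 0.02 over all windows of the genome tested.

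The called window with the lowest FDR was on NW_003099789.1, from base 281 over the contig's end. It held 17 and 236 reads in animal 1 at 5 and 16 months, 145 and 211 reads in animal 2 and 59 and 103 reads in animal 3. On the TMM scale this was 0.782 and 5.63 CPM, 4.804 and 10.5 CPM, and 2.56 and 5.23 CPM, lower at 5 months in 3 of 3 animals, and on that scale the age groups did not overlap. The log2 difference was -1.52 ± 0.23 (SE), or 2.87-fold (edgeR's quasi-likelihood test, FDR = 3.60e-06). By counted reads only, the 5-month level of animal 2 lay above the 16-month level of animal 3, so there the age groups overlapped. With TMM factors over all windows no unplaced window was called by age.

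The other 3 called windows did not fall clearly in every animal. On NW_003100527.1, from base 12689, the TMM-scaled level was 0.690 and 3.94 CPM in animal 1 and 1.89 and 4.66 CPM in animal 2. In animal 3 it was 2.21 and 2.23 CPM, so that the ages were just kept apart on that scale (log2 difference -1.22, FDR = 0.0182 by edgeR's quasi-likelihood test). Inside NW_003099167.1, the contig with the most windows, bases 158356 to 161355 held 1.38 and 3.99, 1.33 and 5.20, and 1.95 and 1.68 CPM, so animal 3 went the other way. The window of NW_003098582.1 from base 697 held 6.71 and 37.0 CPM in animal 1 and 23.3 and 85.7 CPM in animal 2 but 46.6 and 26.1 CPM in animal 3, and it was the second called contig (2.32-fold, FDR = 0.0574 by edgeR). The fifth window in order of FDR, on NW_003099176.1, did not pass (FDR = 0.120 by edgeR). Of contigs not called, the 3 with the lowest FDR were NW_003100510.1, NW_003099187.1 and NW_003100753.1, at 0.266, 0.354 and 0.472 by edgeR.

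Few unplaced windows kept the ages apart. All 5-month libraries lay above all 16-month libraries in 5 of 1788 windows, or 0.280%, against a background of 2.43% of all windows tested, and below in 25, or 1.4%, against 2.85%. The same direction in all 3 animals was found in 186 unplaced windows, 66 higher and 120 lower at 5 months, which is 10.4%, and in 26.3% of the chromosomal windows. These comparisons were not matched for level, and 94752 of the 102860 chromosomal windows tested lay under 10 CPM. Of the 619 unplaced windows under 10 CPM, 47 were higher and 114 lower in all 3 animals, a share close to the chromosomal one. The share of unplaced windows with the same direction in all 3 animals was 4.12% from 10 to 100 CPM and 0.171% from 100 CPM.

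At a mean of at least 100 CPM, the direction in animal 3 was opposite to that of most windows in animal 2. In animal 1 it differed between the blocks, with 15.2% of lower-block and 63.3% of upper-block windows higher at 5 months on the TMM scale. Over all 1788 windows the median log2 difference in animal 1 was -0.02 on the TMM scale and 0.16 by counted reads only. Among the 586 windows with a mean of at least 100 CPM, the 5-month level was higher in 99.8% of windows in animal 3, in 27.5% in animal 2 and in 35.3% in animal 1 on the TMM scale. For the 902 chromosomal windows of this level the shares were 82.5, 43.8 and 46.6% in the same order, so most of these were also higher in animal 3. In the upper block the median log2 difference, 5 minus 16 months, was 0.03 in animal 1 (quartiles -0.02 and 0.07), -0.54 in animal 2 (quartiles -0.58 and -0.49) and 0.47 in animal 3 (quartiles 0.43 and 0.50). Within an animal the spread over the windows of this block was thus narrow. The lower block had medians of -0.43, -0.08 and 0.34 with wider quartiles in animals 1 and 2. Chromosomal windows of the same level had medians of -0.02, -0.04 and 0.20.

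The distance between the blocks was -0.46 log2 units in animal 1, 0.46 in animal 2 and -0.13 in animal 3. To 2 decimals it was the same with the 4 scalings tried (counted reads only, TMM factors over the tested or over all windows, and DESeq2 size factors). A scaling moves both blocks alike, so this sameness was fixed in advance and is no check of the distance. The values of the blocks themselves moved with the scaling, that of the upper block in animal 1 between 0.01 and 0.38. With TMM factors over all windows the medians were -0.84 in the lower and -1.30 in the upper block in animal 2, and 0.82 and 0.95 in animal 3, and in both blocks animal 2 stayed below 0 and animal 3 above 0 with all 4. The same could be read in the 10 highest contigs by counted reads. In the 7 of the upper block the 5-month level was 1.11 to 1.21 times the 16-month level in animal 1, 0.669 to 0.718 times in animal 2 and 1.26 to 1.31 times in animal 3. In the 3 of the lower block it was 0.570 to 0.749 times in animal 1, 0.740 to 1.07 times in animal 2 and 1.17 to 1.65 times in animal 3. Whether the cultures or the preparation of each library moved with these shifts was not tested, since each animal and age has 1 library.

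**Figure D4:**
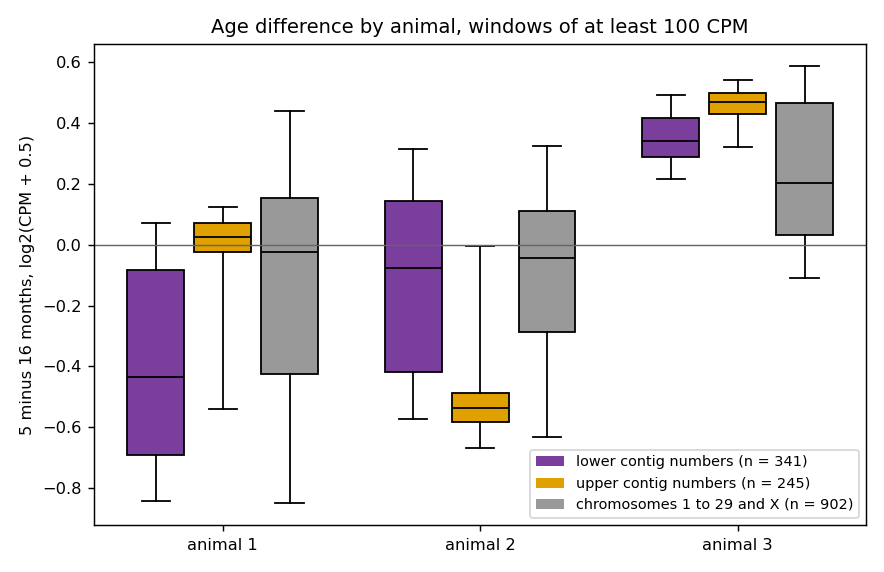
Difference between 5 and 16 months within each animal (y axis, log2(CPM + 0.5) on the TMM scale) for windows with a mean of at least 100 CPM. Boxes give quartiles and median and whiskers the 5th and 95th percentiles over windows of the lower block, the upper block and chromosomes 1 to 29 and X, and the upper block lies at -0.54 in animal 2 and at 0.47 in animal 3.

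The stacking ratio is the highest depth of coverage in a window divided by its read count. It has no fixed null value, since it rises when a window has few reads however these are placed, and it is compared here between kinds of window. Over windows with at least 20 reads the median unplaced ratio was 0.262 ± 0.00864 and the median on chromosomes 1 to 29 and X was 0.241 ± 0.0216 (SD, n = 6). The difference was 0.0206 ± 0.0149 and above 0 in 6 of 6 libraries (exact two-sided sign-flip test, p = 0.0312, and 0.25 over 3 animal means). The direction depended on the read minimum, since with at least 10 reads the mean difference was -0.0150 and below 0 in 4 of 6 libraries.

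Windows at contig ends and inside contigs went opposite ways. Windows that ran over an end had a median of 0.302 ± 0.00644 and were above the chromosomes in 6 of 6 libraries by 0.0610 ± 0.0157, whereas windows inside a contig had 0.213 ± 0.0116 and were below the chromosomes in 6 of 6, with a difference of -0.0280 ± 0.0121 (exact two-sided sign-flip tests, p = 0.0312 each). A highest depth above the read count itself was found in 10 to 15 windows over a contig end per library, or 0.907 to 1.37%, and in 0 or 1 inside a contig, against 0.0441 to 0.123% on the chromosomes. The ratio also depended on the number of reads, for which the tests against the chromosomes above were not matched. Medians of unplaced and chromosomal windows were alike from 20 to 50 reads, at 0.287 and 0.286, and from 100 to 300 reads, at 0.170 and 0.163. With 300 to 1000 reads they were 0.283 ± 0.0644 and 0.148 ± 0.101, and with 1000 reads or more 0.286 ± 0.00344 and 0.335 ± 0.0244, where the unplaced windows were lower in 6 of 6 libraries.

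**Figure D5:**
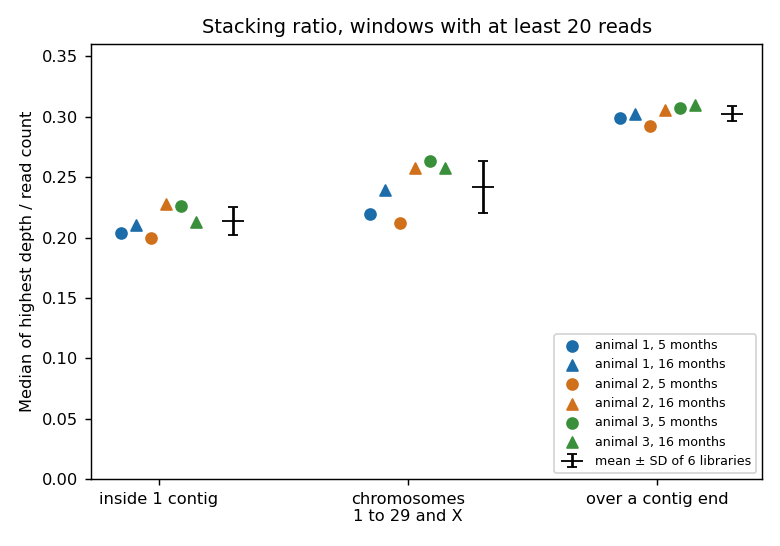
Median stacking ratio (y axis, highest depth divided by read count) of windows with at least 20 reads in each of the 6 libraries, for windows inside 1 contig, on chromosomes 1 to 29 and X, and over a contig end. Black marks give the mean and SD of 6 libraries, and windows over a contig end lie at 0.292 to 0.310, above the other groups.

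Of 1692 unplaced windows with at least 20 reads in every library, 149 had a mean ratio above 0.5 and 32 below 0.1. The 5 highest all ran over a contig end. NW_003100304.1 had a ratio of 17.0 ± 11.7 (SD, n = 6) at 22 to 59 reads, which means that its highest depth was many times its own count. It was followed by NW_003099854.1 at 4.16 ± 0.336, NW_003100417.1 at 3.64 ± 1.18, NW_003099271.1 at 1.79 ± 0.272 and NW_003098949.1 at 1.73 ± 0.249. Of the 5 lowest, 4 lay inside a contig. They were on NW_003100872.1 (0.0732 ± 0.0154), at bases 40833 to 43832 of NW_003099180.1 within PXDN (0.0732 ± 0.00883), on NW_003100262.1 (0.0778 ± 0.00840), on NW_003100883.1 (0.0784 ± 0.00999) and at bases 4488 to 7487 of NW_003100881.1 within PPP1R12B, a regulatory subunit of myosin phosphatase (0.0799 ± 0.00912). High-level contigs also differed in this, with 0.482 for NW_003100012.1 and 0.157 for NW_003100686.1.

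Genes were labelled in 324 of the unplaced windows, or 10.2%, against 39.6% on the chromosomes. The 324 windows carried 123 gene symbols, of which 98 were LOC numbers, 1 each began with CYP, OR, ZNF and IG, 21 belonged to none of the families counted, and 7 also labelled windows on a chromosome. Of the 123 symbols, 47 had no read in any library in any of their windows. Labelled windows had a median of 1.08 ± 0.203 CPM and held 1.79 ± 0.420% of the unplaced reads (SD, n = 6), and windows with no label had a median of 2.32 ± 0.435 CPM and were above them in 6 of 6 libraries. Of the labelled windows 168 passed the CPM filter.

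The 10 contigs with the most windows had 366 windows in all, of which 238 passed the filter. Their median windows ran from 0.0925 to 7.20 CPM, and windows named for 6 of them had the label of a named protein-coding gene. NW_003099180.1, with 37 windows, held PXDN, which encodes peroxidasin, an enzyme that cross-links collagen IV in basement membranes. Its 23 labelled windows had 9.93 and 10.6 CPM per window in animal 1, 9.77 and 12.9 CPM in animal 2 and 5.41 and 4.93 CPM in animal 3. NW_003099179.1 held SNTG2, a syntrophin, at 5.52 ± 1.69 CPM per window over 13 windows (SD, n = 6). MYT1L, a zinc finger factor of neurons, had 5.79 ± 1.81 CPM over 19 windows of NW_003100231.1, and all 19 passed the filter. TMEM18 on NW_003099175.1 had 5.54 ± 1.45 CPM over 3 windows.

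On NW_003099170.1 lay ACP1, which encodes a low molecular weight protein tyrosine phosphatase, at 2.24 ± 0.525 CPM per window and SH3YL1, which encodes a phosphoinositide-binding protein with an SH3 domain, at 1.08 ± 0.258 CPM, along with LOC616690. In the RefSeq table of a later assembly, ARS-UCD2.0, 36 of the 123 symbols were found, and SH3YL1, ACP1, TMEM18, SNTG2, PXDN and MYT1L stand close together in gene order. No other protein-coding gene stands between SH3YL1 and ACP1 or between TMEM18 and SNTG2, and 2 stand between PXDN and MYT1L. Positions in that assembly were not used.

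By counted reads, 9 of the 10 contigs had their lowest levels in both libraries of animal 3. On the TMM scale this held for 3, the contigs of PXDN, of SNTG2 and of MYT1L, where animal 3 was at 0.771, 0.806 and 0.835 times animal 1. The other contigs of the 10 were NW_003099167.1 with 60 windows, 15 of which passed the filter and whose labels were LOC symbols only, NW_003099189.1, NW_003099185.1 and NW_003099188.1, which had no gene label, and NW_003100067.1. Their contig levels were 36.5 ± 7.17, 111 ± 28.0, 108 ± 31.5, 78.8 ± 19.6 and 3.80 ± 0.980 CPM (SD, n = 6). NW_003100067.1 begins 20 windows, has a MUC2 label, and only 1 of its windows passed. Whether MUC2 lies on this contig or on the contig that follows was not examined.

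The labelled windows with the highest levels were of another kind. Of the 15 highest, 13 ran over a contig end and most were LOC loci. LOC785996 on NW_003100695.1 held 300.2 and 269 CPM in animal 1 at 5 and 16 months, 268 and 405 CPM in animal 2 and 248 and 187 CPM in animal 3. LOC100336801 on NW_003100419.1 held 412 and 356, 124 and 176, and 319 and 247 CPM, lowest in animal 2. LOC100336415 labelled windows of both NW_003099373.1 and NW_003099375.1, with means of 263 ± 64.8 and 174 ± 72.3 CPM (SD, n = 6), highest in animal 3 at 5 months. ZNF813 on NW_003100298.1, a member of the zinc finger genes, held 186 and 163, 277 and 423, and 131 and 99.1 CPM, and both libraries of animal 2 lay above the other 4. LOC100847540 reached 159 ± 45.3 CPM on NW_003100111.1 and 72.9 ± 20.1 CPM on NW_003100112.1. ADAM1A, of the ADAM family of metalloproteases, held 137 ± 28.6 CPM on NW_003100468.1. MUC2, which encodes the gel-forming mucin of the intestine, labelled 8 windows named for 6 contigs, at 0.743 to 86.7 CPM. It also labelled windows on a chromosome. The 6 names come in pairs of successive numbers, so a window over an end may carry the label of the contig that follows. LOC100301469, LOC531878 and LOC100301152 had 55.0 ± 11.7, 46.7 ± 11.5 and 25.9 ± 8.01 CPM. A label covers a whole window, so the reads of a window over a contig end need not lie on the gene. Nor need the gene lie on the contig for which such a window is named.

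Several genes of defence also lie on unplaced contigs, and they were picked after their values were seen. CATHL1 and CATHL4, which encode cathelicidins, antimicrobial peptides of cattle, had 0.343 ± 0.10 and 2.13 ± 0.937 CPM in 1 window each on NW_003100301.1. IFITM3, an interferon-induced membrane protein that restricts viral entry, had 1.36 ± 0.447 CPM per window. TNFAIP2, a gene induced by tumour necrosis factor, had 11.5 ± 4.66 CPM, and the immunoglobulin heavy constant gene IGHG1 had 5.73 ± 2.25 CPM per window (SD, n = 6). CATHL1 did not pass the CPM filter and was not tested. No tested window of the others was called by age, against a background of 0.185% of all windows tested, so a call among so few windows would be rare.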

How the data were processed

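MIRA-Seq libraries of 3 Holstein heifers, each sampled at both ages, were grouped by the labels. The authors trimmed and filtered the reads, aligned them to UMD v3.1 with NextGENe and deposited raw read counts of sequential windows of 3 kb, with no normalization. Beside each count they deposited the highest and mean depth of coverage, a signal not scaled to library size, in which 10 entries above 65535 (none unplaced) were treated as missing. Duplicate fragments from PCR may be among the counts, and intervals cover no such error.

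Windows reaching 1 CPM in 3 or more libraries were fitted in R 4.3.3 with edgeR 4.0.16 (quasi-likelihood test, TMM factors over the windows tested, animal as a block, Benjamini-Hochberg adjustment over all windows), and called at an FDR below 0.1 and a change of at least 2-fold. DESeq2 1.42.0 was an alternative. In the sum over contigs, unplaced contigs were fitted with the windows of the rest of the genome. The tests were run on simulated data first. Single values per library were tested with exact sign-flip permutation tests in Python 3.11.15 (scipy 1.17.1, numpy 2.4.6, pandas 2.3.3), and figures were drawn with matplotlib 3.10.9. Differences within 1 animal are log2(CPM + 0.5) values.

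Libraries were paired by animal, since each animal gave a culture at both ages. Deviations from the mean of the age correlated between the 2 libraries of animals 1, 2 and 3 at 0.692, 0.818 and 0.862 over the unplaced windows tested. Over all 104658 windows tested the values were lower, at 0.290, 0.544 and 0.710.

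Depth was 19925171 to 43573272 counted reads per library, which makes counting error small for shares and large for windows near the filter. The members and lists were chosen with earlier results of these data known. Named contigs and windows are the 10 contigs with the highest mean CPM, the 10 with the most windows, all called by age or the 5 with the lowest FDR, the 10 windows with the lowest FDR by animal, the 5 highest and 5 lowest stacking ratios, and the genes of those windows or of the 15 labelled windows with the highest mean CPM. NW_003100576.1 and the genes of defence are outside this rule. Alternatives were other tests, scalings, filters, denominators and read minimums, no block and leaving out each animal. Sequences of the contigs were not analysed here. A labelled gene that the rule would name is not reported here.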

Additional observations from a re-analysis of the deposited data

How the results depend on the processing

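The count of unplaced windows called by age, 4, fell to 0 with TMM factors over all windows and with no CPM filter, and to 1 with a minimum of 0.5 CPM and with DESeq2. At an unadjusted p below 0.05 edgeR found 5, 17 and 22 windows with those TMM factors, with no filter and at 0.5 CPM, and DESeq2 found 17. Leaving out 1 animal gave 0 to 11. The 2 contigs called fell to 0 with TMM factors over all windows and with no filter and to 1 at 0.5 CPM and with DESeq2, and ranged from 0 to 4 without 1 animal. Without the animal as a replicate block, edgeR called 0 windows and 0 contigs, with 7 and 1 at an unadjusted p below 0.05. The 715 windows called by animal fell to 24 with TMM factors over all windows and to 11 with no filter, and ranged from 214 to 641 without 1 animal. Likelihood-ratio tests and DESeq2 size factors kept each count within 1.5 times. The cause of these moves was not tested. The age difference of the share, -0.0120 points, was 0.287 points without the 1% of chromosomal windows with the most counts and ranged from -1.79 to 1.67 points without 1 animal, and without the block the exact permutation p was also 1. The share itself was 10.02% of matched reads. The stacking difference of 0.0206 turned to -0.0150 with at least 10 reads and, in checks chosen after seeing the data, to -0.0496 with at least 1000 reads and -0.0280 inside contigs. It ranged from 0.0166 to 0.0281 without 1 animal. The difference of median levels ranged from 1.72 to 2.15 CPM without 1 animal. With 4 libraries the exact sign-flip test gives at least p = 0.125, and over 3 animal means (0.0206 and 1.95 CPM) at least p = 0.25. In the mean, 50% of the unplaced reads lay on 181 contigs or, with windows ranked in place of contigs, on 214 windows, and 90% on 604 contigs. The mean rho between libraries, 0.968 over all contigs, was 0.896 over contigs past the filter. At 1 library per animal and age, depth and preparation cannot be told apart from the culture.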
